A study of Mus musculus with 10 samples.

Results

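The motile cilia axoneme genes described here are 76 protein-coding genes, taken from the 56748 gene identifiers of the count files (21871 of them protein-coding) by symbol. They are the genes named Cfap, Dnah, Dnai, Dnaaf, Drc, Tekt or Spag followed by a number and nothing else, all named Rsph, and Wdr63, Map3k19, Ccdc39, Ccdc40, Ccdc153 and Ttc21a. The set is defined by symbols, but it was chosen with earlier results of these data known. Its counts are therefore a description and no test of the set. The axoneme is the microtubule core of a cilium, and in motile cilia it carries outer and inner dynein arms that bend it, radial spokes and a central apparatus that regulate the arms, and nexin-dynein links that hold the doublets together. In the developing forebrain the choroid plexus epithelium forms at the dorsal midline beside the cortical hem. This epithelium is known to build tufts of cilia, while neural progenitors carry a single primary cilium. Several of the family names are shared by proteins outside the axoneme: Spag5 (astrin) acts at the mitotic spindle, Spag9 (JIP4) is a scaffold for kinase signalling and motor transport, and Spag4 is a nuclear envelope protein.

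The libraries were total RNA of cortex, the dorsal telencephalon, from mouse embryos at E12.5, with 5 libraries labelled Emx2 KO and 5 labelled WT. The comparison asks which transcripts differ where Emx2, a homeobox transcription factor gene of the dorsal telencephalon, is knocked out. The labels give no allele, strain or litter and no separate embryo for each library, so the p-values rest on the variation among these samples alone, part of which may be technical. Counts per library ran from 9720840 to 35674113, with 5 large libraries (24856930 counts or more, 3 KO and 2 WT) and 5 small ones (14700549 or fewer, 2 KO and 3 WT).

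Emx2 itself was lower but not absent in the libraries labelled KO, at 123 ± 21.1 against 186 ± 12.8 CPM (SD, n = 5 each; CPM is the count scaled to the library's TMM-adjusted total), and the part of the gene that is deleted is not given. Cortical markers were present in all libraries. Markers of the choroid plexus and the cortical hem were present in WT and lower in KO: of 19 tested choroid plexus markers 15 fell and 4 did not pass, and their summed level ran from 439 to 517 CPM over the WT and from 129 to 177 CPM over the KO libraries. Of 15 hem markers 11 fell and 4 did not pass, with sums of 524 to 759 CPM in WT and 215 to 418 CPM in KO. Of 11 cortical markers 8 rose and 3 did not pass, of 10 markers of the meninges 1 fell and 1 rose, and the 8 of endothelium and the 9 of blood did not pass. Over all genes tested, 9.33% were called lower and 12.9% higher. Some choroid plexus markers, such as Kcnj13 and Cldn2, reached the minimum of the count filter (given below) in no KO library. These markers passed the filter through WT, so they are no support for a share. No choroid plexus marker that passed the filter was at 0 in all KO libraries. In RNA from whole tissue, fewer cells of a type and less RNA per cell cannot be told apart, and the part of these tissue differences in the results that follow was not tested.

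Of the 76 axoneme genes, 61 had enough counts to be tested, and 40 of these fell in the knockout, 2 rose and 19 did not pass (edgeR quasi-likelihood test, Benjamini-Hochberg adjusted p under 0.05 over all 18163 genes tested). Over all genes 9.33% were called lower and 12.9% higher. At least 2-fold decreases were found for 30 members (1.96% of all genes), at least 4-fold for 16 (0.479%) and at least 8-fold for 9 (0.215%). For 36 members every KO library lay below every WT library, which was so for 7.06% of all genes. The median log2 fold change of the tested members was -0.90, against -0.01 over all genes tested, and the values ran from -4.68 to 0.94. Of the 61, 18 members did not reach the minimum of the filter (0.506 CPM in at least 5 libraries) in all 5 KO libraries and so passed it through WT at least in part. For 9 of them (Wdr63, Dnah6, Dnah3, Drc7, Tekt4, Spag17, Cfap52, Cfap53 and Map3k19) no KO library reached that minimum. All 18 fell. Since the filter favours such genes, they are no support for a share of members, here or in the structural groups below. The 18 members hold 18 of the 30 decreases of at least 2-fold, 14 of the 16 of at least 4-fold and all 9 of at least 8-fold. Dnah8 passed the filter through KO. Among the 42 members at the minimum in all 10 libraries, 22 fell (9.57% of all genes at that minimum), 1 rose and 19 did not pass, with a median of -0.48. Of these 42, 12 fell by at least 2-fold (1.23% of such genes), 2 by at least 4-fold (0.107%) and 0 by at least 8-fold, in a set from which the minimum removes the deepest decreases.

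**Figure D1:**
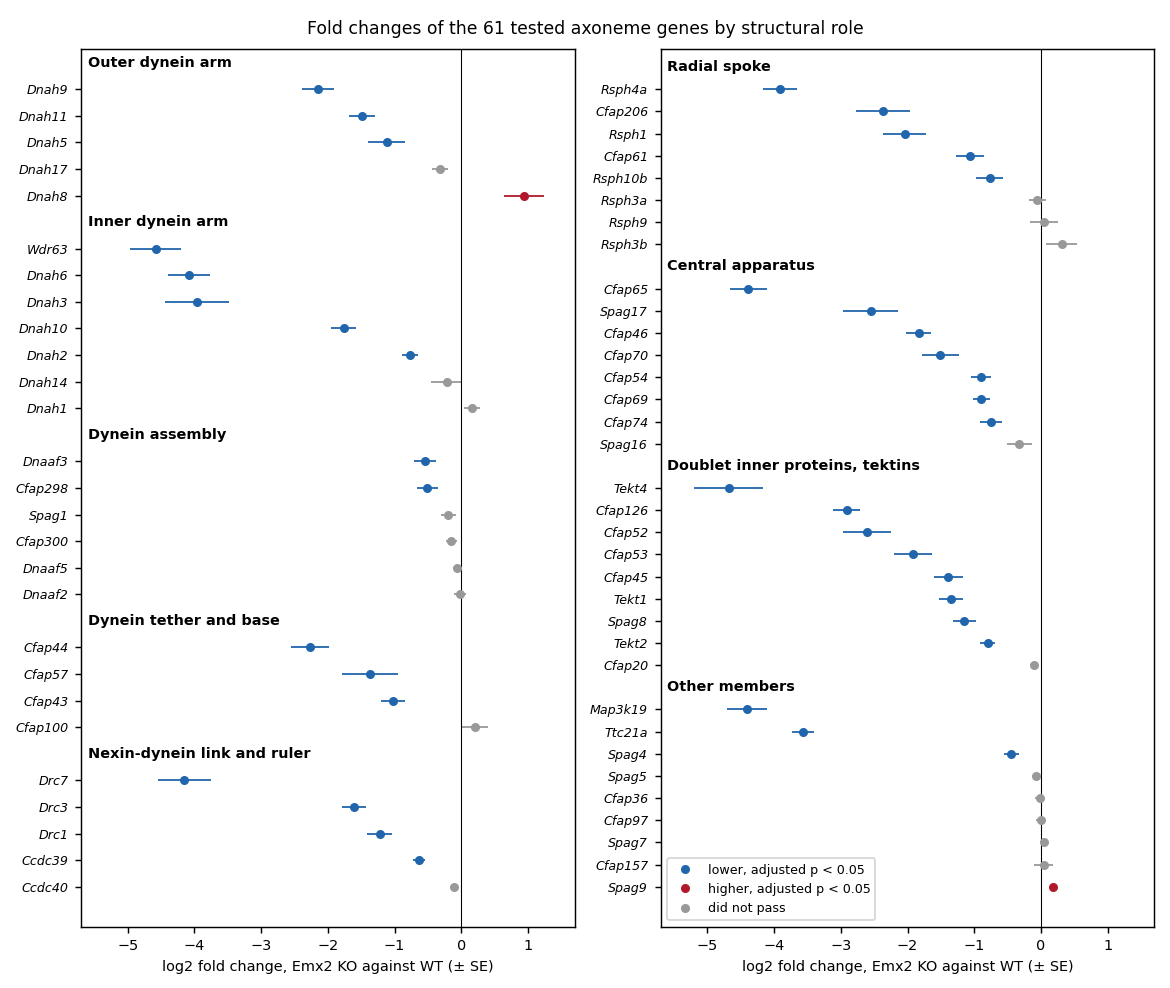
Log2 fold change of Emx2 KO against WT (x axis, points with standard errors) for the 61 tested axoneme genes, grouped by the structure their protein belongs to (y axis). Decreases past the threshold (blue) stand in every group, from -4.68 for Tekt4 to -0.44 for Spag4, and the 2 increases are Dnah8 and Spag9.

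The promoters of the members with the deepest decreases are given first, with 2 abundant members that did not pass beside them. They come from the RefSeq promoter table for GRCm38.p6, which covers 250 bases before to 50 bases after a start site and held 62 of the 76 members. The 4 members are those with the largest decreases at a WT mean of at least 1 CPM that had an entry, namely Tekt4, Wdr63, Drc7 and Dnah6. The letters GTTGCC are a form of the half-site of RFX factors (known regulators of ciliary genes), and GTTGCCATG is a longer form that contains them. Both, and the forkhead core TGTTTAC, were searched on both strands as exact letters. Variants of these letters were not searched. Capitals mark a match, which in Tekt4 is GTTGCC on the opposite strand, and the other 5 windows hold none of the 3.
Tekt4 (chr17:25471340-25471639, plus strand): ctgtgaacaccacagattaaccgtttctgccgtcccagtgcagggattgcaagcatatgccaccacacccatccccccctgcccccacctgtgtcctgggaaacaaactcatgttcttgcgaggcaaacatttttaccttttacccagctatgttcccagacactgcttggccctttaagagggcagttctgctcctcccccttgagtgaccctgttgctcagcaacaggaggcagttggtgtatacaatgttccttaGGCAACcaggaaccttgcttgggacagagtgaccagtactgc
Wdr63 (chr3:146107987-146108286, minus strand): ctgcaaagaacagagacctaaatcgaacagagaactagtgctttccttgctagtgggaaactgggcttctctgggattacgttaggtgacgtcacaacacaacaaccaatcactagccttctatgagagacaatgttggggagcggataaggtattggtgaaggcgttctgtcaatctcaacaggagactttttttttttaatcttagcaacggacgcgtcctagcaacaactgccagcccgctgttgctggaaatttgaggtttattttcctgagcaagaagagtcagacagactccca
Drc7 (chr8:95054853-95055152, plus strand): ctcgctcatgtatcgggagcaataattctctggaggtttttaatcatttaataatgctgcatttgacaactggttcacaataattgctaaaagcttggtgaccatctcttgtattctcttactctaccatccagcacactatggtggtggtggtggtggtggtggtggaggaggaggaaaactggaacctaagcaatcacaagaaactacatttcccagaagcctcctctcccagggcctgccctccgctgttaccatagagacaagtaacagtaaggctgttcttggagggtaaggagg
Dnah6 (chr6:73221582-73221881, minus strand): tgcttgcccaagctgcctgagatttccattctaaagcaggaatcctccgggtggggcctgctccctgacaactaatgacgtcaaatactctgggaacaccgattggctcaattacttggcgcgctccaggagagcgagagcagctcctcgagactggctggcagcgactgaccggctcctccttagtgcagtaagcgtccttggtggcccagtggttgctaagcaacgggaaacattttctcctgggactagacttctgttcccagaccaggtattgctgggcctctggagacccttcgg
Spag5 (chr11:78301341-78301640, plus strand): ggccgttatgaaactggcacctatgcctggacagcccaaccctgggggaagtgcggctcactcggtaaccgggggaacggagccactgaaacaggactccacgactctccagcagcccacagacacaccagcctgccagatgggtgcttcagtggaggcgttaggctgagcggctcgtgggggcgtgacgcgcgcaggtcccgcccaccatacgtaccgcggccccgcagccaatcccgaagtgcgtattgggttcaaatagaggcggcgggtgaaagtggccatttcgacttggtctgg
Spag7 (chr11:70669367-70669666, minus strand): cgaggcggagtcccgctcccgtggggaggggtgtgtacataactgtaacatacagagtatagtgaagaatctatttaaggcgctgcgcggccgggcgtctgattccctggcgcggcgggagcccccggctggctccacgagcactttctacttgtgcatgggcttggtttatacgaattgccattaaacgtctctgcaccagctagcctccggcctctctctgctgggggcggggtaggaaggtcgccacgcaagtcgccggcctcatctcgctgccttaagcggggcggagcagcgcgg
The half-site stood in the window of 22 of the 62 members (35.5%), against 14.1% of all 27025 genes in the table. By call, it stood in 11 of 32 members that fell (34.4%) and in 7 of 16 tested members that did not pass (43.8%). The longer form was found in 2 members, Cfap74 and Cfap161, against 0.877% of all genes. The forkhead letters were found in 4 (Cfap43, Cfap20, Dnah17 and Tekt3; 6.45%), against 4.05% of all genes. The 6 half-sites of fallen members nearest a start site are shown with 10 bases on either side, each read on the strand of the match with the half-site in capitals.
Cfap46 (chr7:139683809-139683834): accagtagcgGTTGCCtagagacggg
Drc1 (chr5:30281372-30281397): ggaacaagccGTTGCCaagggaaagc
Ttc21a (chr9:119937602-119937627): cagcagccagGTTGCCaaggacgcgc
Tekt4 (chr17:25471588-25471613): aaggttcctgGTTGCCtaaggaacat
Tekt1 (chr11:72361882-72361907): cgtccgtccgGTTGCCatagagaccg
Dnah10 (chr5:124725085-124725110): tagggtcgccGTTGCCacggacgccc
Their middles lie between 12 bases before and 13 bases after the start site. A match is only these letters in this window, and no binding was measured.

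The outer dynein arms, the motors that set the beat frequency, were lower in their ciliary heavy chains. Of 5 tested members 3 fell, 1 rose and 1 did not pass. Dnah9 (ENSMUSG00000056752), a heavy chain of the arm in airway and ependymal cilia, stood at 3.16, 5.16, 4.24, 3.47 and 5.49 CPM in the WT and at 0.952, 0.930, 0.594, 0.818 and 1.52 CPM in the KO libraries (replicates 1 to 5 of each group). All KO libraries were below all WT libraries, and Dnah9 changed by -2.15 ± 0.24 on the log2 scale (SE, edgeR adjusted p = 8.18e-05). Dnah11, its counterpart near the base of the cilium, fell from 2.18 ± 0.293 to 0.763 ± 0.136 CPM (-1.49 ± 0.19), with exons that overlap those of Cdca7l. Dnah5, the partner heavy chain, fell from 1.33 ± 0.481 to 0.602 ± 0.145 CPM (-1.12 ± 0.28, edgeR adjusted p = 0.0130), and WT replicate 2 (2.18 CPM) stood apart from the other WT libraries (at most 1.22 CPM). Dnah8, the sperm counterpart of Dnah5, stood at 0.167, 0.218, 0.415, 0.297 and 0.509 CPM in WT and 0.558, 0.595, 0.520, 0.777 and 0.692 CPM in KO. The groups did not overlap and the log2 fold change was 0.94 ± 0.30 (edgeR adjusted p = 0.0430), but the call was lost in 4 of the 5 leave-one-out fits that tested Dnah8 (without KO replicate 3 or 5 or WT replicate 1 or 2). It was also lost with size class as a block, with no filter and under total-count scaling, and Dnah8 reached the filter minimum in all 5 KO libraries but in 1 WT library, so it passed the filter through the group where it is higher. Dnah17, the sperm counterpart of Dnah9, did not pass (-0.32 ± 0.12, edgeR adjusted p = 0.0775). It passed as lower under upper-quartile scaling, total counts and limma-voom.

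Among the inner arms, which shape the bend, 5 of 7 tested members fell and 2 did not pass, and the decreases were graded. Of those that fell, Wdr63, Dnah6 and Dnah3 reached the filter minimum in no KO library, so they passed it through WT. Wdr63 (ENSMUSG00000043020), an intermediate chain of the double-headed inner arm, whose promoter is shown above, stood at 1.58, 1.60, 2.63, 1.81 and 2.85 CPM in WT and 0.0656, 0.112, 0, 0.0818 and 0.138 CPM in KO. No KO library exceeded 0.138 CPM, and Wdr63 changed by -4.58 ± 0.38 (edgeR adjusted p = 9.99e-06). Dnah6 (ENSMUSG00000052861), a single-headed inner arm heavy chain, stood at 3.58, 6.97, 6.81, 4.34 and 6.81 CPM in WT and 0.131, 0.409, 0.297, 0.491 and 0.346 CPM in KO, again without overlap (-4.08 ± 0.32, edgeR adjusted p = 6.37e-06). Dnah3, another single-headed chain, changed by -3.96 ± 0.48 from 1.26 ± 0.506 CPM, and its exons overlap those of Lyrm1. The 2 heavy chains that Wdr63 serves fell less: Dnah10 went from 4.10 ± 0.602 to 1.21 ± 0.286 CPM (-1.76 ± 0.19) and Dnah2 from 10.5 ± 0.920 to 6.21 ± 1.03 CPM (-0.76 ± 0.12). Dnah1 (13.1 ± 1.04 to 14.6 ± 2.85 CPM, 0.17 ± 0.12) and Dnah14 (1.78 ± 0.588 to 1.53 ± 0.238 CPM, -0.22 ± 0.23) did not pass, and their groups overlapped.

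The dynein assembly factors fold and assemble the arms in the cytoplasm before transport. Their members had the smallest median change of the structural groups. Of 6 tested members, 2 fell and 4 did not pass, and their median was -0.17. Assembly factors outside the naming rule are not counted here, and such a factor, Zmynd10, fell further (below). Dnaaf3 stood at 9.83, 5.96, 6.34, 7.78 and 7.83 CPM in WT and 6.27, 5.80, 4.23, 5.07 and 4.08 CPM in KO, so the groups overlapped (-0.55 ± 0.17, edgeR adjusted p = 0.0323). Its exons overlap those of Tnni3, and the call was lost in 6 of the 10 leave-one-out fits (without KO replicate 3, 4 or 5 or WT replicate 1, 4 or 5). Cfap298 fell by less (-0.51 ± 0.16, edgeR adjusted p = 0.0338), and its call was also lost in 6 of 10 (without KO replicate 3 or 4 or WT replicate 1, 2, 3 or 5), with size class as a block and with no filter. Cfap300 (-0.15), Spag1 (-0.19), Dnaaf5 (-0.06) and Dnaaf2 (-0.02) did not pass. Dnaaf5 ranged from 20.3 to 22.2 CPM in KO and from 20.4 to 24.4 CPM in WT.

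The structures that dock and space the inner arms were lower with exceptions. In the tether and base of the inner arms 3 of 4 tested members fell and 1 did not pass. Cfap44 (ENSMUSG00000071550), of the tether that anchors the double-headed arm, stood at 13.2, 8.86, 10.8, 9.53 and 13.6 CPM in WT and 1.64, 3.79, 3.34, 1.47 and 1.32 CPM in KO. The groups were well apart (-2.27 ± 0.29, edgeR adjusted p = 0.000267), although KO replicates 2 and 3 held more than 2 times the level of the other KO libraries. Its tether partner Cfap43, whose exons overlap those of Itprip on the same strand, stood at 3.66, 7.26, 6.48, 6.44 and 6.92 CPM in WT and 2.30, 3.20, 3.49, 3.15 and 3.11 CPM in KO (-1.02 ± 0.19). Cfap57 changed by -1.38 ± 0.42 (edgeR adjusted p = 0.0334), but WT replicate 1 (0.250 CPM) lay within the KO range and the call was lost in 5 of the 8 leave-one-out fits that tested it (without KO replicate 2, 3 or 5 or WT replicate 2 or 5) and with limma-voom. Cfap100 did not pass (0.21 ± 0.20).

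In the nexin-dynein regulatory complex and the ruler that sets the spacing of the axonemal repeat, 4 of 5 tested members fell and 1 did not pass. Drc7 (ENSMUSG00000031786) stood at 2.08, 1.45, 1.83, 1.46 and 1.73 CPM in WT and 0.131, 0.149, 0.0742, 0 and 0.0692 CPM in KO, the deepest decrease of this complex (-4.16 ± 0.40, edgeR adjusted p = 2.69e-05). Its KO values rest on 4, 4, 1, 0 and 1 counts, so the size of this decrease is imprecise. Drc3 (-1.61 ± 0.19) and Drc1 (-1.22 ± 0.19) fell less. The ruler is a dimer of Ccdc39 and Ccdc40. Ccdc39 stood at 21.8, 18.8, 22.3, 24.3 and 21.2 CPM in WT and 12.3, 13.6, 15.8, 13.3 and 15.2 CPM in KO, without overlap (-0.64 ± 0.09, edgeR adjusted p = 0.000313). Ccdc40 stood at 30.7, 28.0, 26.1, 27.2 and 29.7 CPM in WT and 25.1, 28.3, 26.9, 25.4 and 24.8 CPM in KO, with overlapping groups (-0.11 ± 0.06, edgeR adjusted p = 0.227). The exons of Ccdc39 overlap those of Ttc14, and the difference between the partners was not tested.

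In the radial spokes, 5 of 8 tested members fell and 3 did not pass. Rsph4a (ENSMUSG00000039552), a spoke head protein of motile cilia, stood at 8.33, 5.88, 6.48, 6.38 and 6.51 CPM in WT and 0.755, 0.260, 0.445, 0.286 and 0.415 CPM in KO. It changed by -3.91 ± 0.25 (edgeR adjusted p = 1.89e-06), with the highest WT value, in replicate 1, apart from the other WT libraries. Rsph1, also of the spoke head, went from 2.17 ± 0.502 to 0.526 ± 0.280 CPM (-2.04 ± 0.32), and Cfap206, of the spoke region, from 2.08 ± 0.729 to 0.399 ± 0.272 CPM (-2.37 ± 0.41). Cfap61, of the calmodulin and spoke-associated complex, fell by less (-1.06 ± 0.21), and its exons overlap those of Crnkl1. Rsph10b fell as well (-0.77 ± 0.21), with exons shared with Pms2 on the same strand, and its call was lost without WT replicate 3. The third spoke head gene, Rsph9, did not pass, at 3.58, 1.96, 3.52, 3.33 and 2.54 CPM in WT and 2.46, 2.86, 4.60, 3.03 and 2.77 CPM in KO (0.04 ± 0.21). The stalk genes Rsph3a (-0.05 ± 0.13) and Rsph3b (0.31 ± 0.23) did not pass either, and as near-identical copies their reads may have been split between them.

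The central apparatus, the pair of single microtubules with projections that signal to the spokes, had 7 of 8 tested members lower and 1 not passed. Cfap65 (ENSMUSG00000047021) stood at 16.2, 13.1, 14.5, 16.3 and 17.4 CPM in WT and 0.886, 0.297, 1.34, 0.450 and 0.969 CPM in KO. No KO library exceeded 1.34 CPM and no WT library was below 13.1 CPM, and this member of the group fell furthest (-4.39 ± 0.28, edgeR adjusted p = 2.06e-06). Spag17, of the C1a projection, was at 0.728 ± 0.181 CPM in WT and 0.101 ± 0.0670 in KO (-2.55 ± 0.41), and its exons overlap those of Wdr3. The genes Cfap46 (-1.83 ± 0.19), Cfap54 (-0.90 ± 0.16) and Cfap74 (-0.75 ± 0.17) belong to one projection, and their decreases ranged from 3.56-fold to 1.68-fold. Cfap69 went from 11.3 to 6.11 CPM (-0.90 ± 0.13) and Cfap70 from 1.25 ± 0.238 to 0.465 ± 0.180 CPM (-1.51 ± 0.28). Spag16, which bridges the pair, was the exception, at 3.91, 2.69, 2.63, 2.35 and 3.97 CPM in WT and 2.53, 2.94, 2.15, 2.37 and 2.08 CPM in KO (-0.32 ± 0.19, edgeR adjusted p = 0.260).

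Of 9 tested members among tektins and other proteins that line the inside of the doublet microtubules, 8 fell and 1 did not pass. Tekt4 (ENSMUSG00000024175), a filament-forming tektin, stood at 1.58, 0.726, 0.831, 1.25 and 1.12 CPM in WT and 0.0656, 0, 0.0742, 0 and 0.0692 CPM in KO. It had the largest decrease of all members (-4.68 ± 0.52, edgeR adjusted p = 7.62e-05), but the KO value rests on 2, 0, 1, 0 and 1 counts, so its size is imprecise. The same holds for Wdr63, Dnah3 and Map3k19, with at most 4 counts in any KO library. Cfap126 (Flattop, ENSMUSG00000026649), known from the positioning of basal bodies in multiciliated cells, stood at 4.66, 5.30, 5.79, 5.46 and 6.51 CPM in WT and 0.919, 0.669, 0.965, 0.450 and 0.692 CPM in KO. These groups were far apart (-2.91 ± 0.20, edgeR adjusted p = 2.64e-06). Cfap52 (-2.61 ± 0.36), Cfap53 (-1.92 ± 0.29), Cfap45 (-1.39 ± 0.22) and Spag8 (-1.15 ± 0.17) fell by 2.22-fold to 6.11-fold. The other 2 tested tektins fell less than Tekt4: Tekt1 went from 3.62 ± 0.583 to 1.42 ± 0.284 CPM (-1.35 ± 0.18) and Tekt2 from 12.9 ± 1.22 to 7.41 ± 1.02 CPM (-0.80 ± 0.11). Cfap20, of the junction between the tubules and found in primary as well as motile cilia, stood at 66.3, 59.1, 62.3, 57.9 and 66.5 CPM in WT and 58.2, 64.2, 56.9, 54.5 and 54.3 CPM in KO, which overlapped (-0.11 ± 0.06, edgeR adjusted p = 0.212).

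Of the 9 tested members outside these structures, 3 fell, 1 rose and 5 did not pass. Ttc21a (ENSMUSG00000032514), the paralogue of an intraflagellar transport subunit gene, stood at 7.16, 6.46, 6.76, 5.97 and 7.53 CPM in WT and 0.492, 0.632, 0.668, 0.614 and 0.415 CPM in KO. It had the smallest adjusted p of all members (edgeR adjusted p = 9.68e-08, -3.57 ± 0.16). Map3k19 (ENSMUSG00000051590), a kinase gene, was at 2.50, 1.67, 1.86, 2.29 and 1.93 CPM in WT and 0.131, 0.0372, 0.0742, 0.0818 and 0.138 CPM in KO (-4.40 ± 0.30, edgeR adjusted p = 2.59e-06). Spag4 fell by a small amount (-0.44 ± 0.11) and its groups overlapped by 1 WT library. Spag9 rose, from 370.1, 424, 407, 419.7 and 399 CPM in WT to 421, 464, 479, 447 and 474 CPM in KO (0.18 ± 0.05, edgeR adjusted p = 0.0201). Its groups overlapped, and the call was lost under total-count scaling and without KO replicate 2. Spag5 (-0.07 ± 0.05) and Spag7 (0.04 ± 0.05), whose promoters are shown above, did not pass, nor did Cfap36 (24.7 CPM in WT, 24.4 in KO), Cfap97 (31.4 and 31.3 CPM) and Cfap157 (2.26 and 2.35 CPM).

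**Figure D2:**
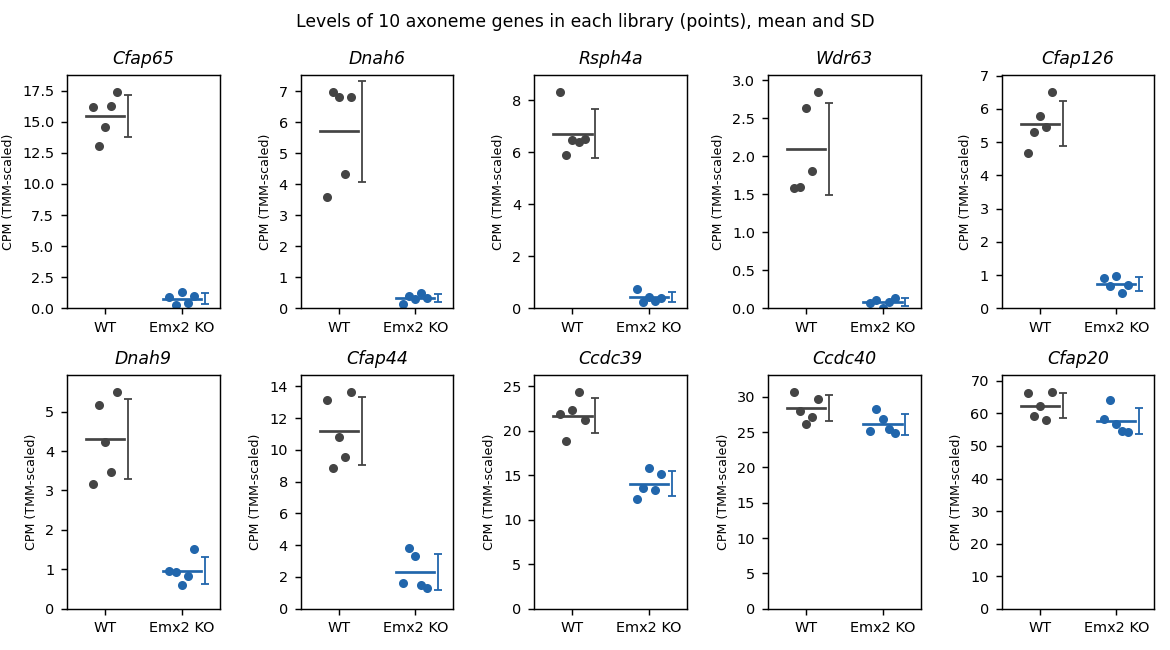
Level in CPM (y axis, from 0) of 10 axoneme genes in each of the 5 WT and 5 Emx2 KO libraries (points), with the group mean (line) and SD (bar). In the 8 panels from Cfap65 to Ccdc39 the groups do not overlap, and in Ccdc40 and Cfap20 they do.

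The other 15 members did not pass the filter: Cfap221, Spag6, Cfap77, Cfap161, Tekt3, Tekt5, Dnaaf1, Cfap73, Dnah12, Ccdc153, Cfap99, Cfap299, Cfap58, Rsph6a and Rsph14. Tekt3 had 0 counts in every library and Ccdc153 at most 1. Cfap161, of the doublet interior, had 8, 3, 17, 20 and 2 counts in WT and 2, 0, 0, 0 and 0 in KO. Rsph14 had 0, 3, 8, 6 and 3 counts in WT and 0 in each KO library, at depths where these numbers allow no fold. Cfap99 had 2, 3, 29, 39 and 3 counts in WT and 2, 4, 0, 1 and 0 in KO, and its 2 high WT values are those of the large WT libraries. Spag6 had 1, 0, 2, 1 and 0 counts in WT and 8, 7, 4, 1 and 2 in KO. It has a near-identical copy, Spag6l, which the naming rule leaves out and which fell from 3.68 ± 0.615 to 0.931 ± 0.359 CPM (-1.96 ± 0.25), so reads of the pair may have been split. The naming rule also leaves out the inner arm heavy chains Dnah7a, Dnah7b and Dnah7c, near-identical copies whose reads may have been split. Dnah7b fell from 5.25 ± 0.781 to 3.21 ± 0.574 CPM (-0.72 ± 0.16, edgeR adjusted p = 0.00692), and Dnah7a (-0.08 ± 0.28) and Dnah7c (-0.14 ± 0.22) did not pass. The files list the outer arm intermediate chains under their older symbols, so they are not among the 76. Both fell: Dnaic1 from 1.10 ± 0.275 to 0.607 ± 0.177 CPM (-0.87 ± 0.26) and Dnaic2 from 2.29 ± 0.446 to 0.783 ± 0.127 CPM (-1.54 ± 0.20).

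Of the 9 tested members with a WT mean of at least 20 CPM, 1 fell (Ccdc39), 1 rose (Spag9) and 7 did not pass. The 11.1% that fell stands beside 9.33% of all genes tested. Of the 52 below that level 39 fell, 1 rose and 12 did not pass. These 52 include all 18 members that passed the filter through WT at least in part, all of which fell. Shares of all genes at either level were not computed. By the mean of both groups, which a decrease itself lowers, Ccdc39 stands under 20 CPM. Per kb of exon, the WT levels were led by Spag7 (41.2 CPM per kb), Spag9 (36.0), Spag5 (33.3), Cfap20 (14.0) and Cfap300 (10.5), none of which was called lower. Tekt2 (6.81 CPM per kb in WT, 3.90 in KO) had the highest WT level per kb of the members that fell, followed by Dnaaf3 (3.39), Spag8 (3.39) and Cfap126 (3.13). The last 3 do not differ beyond their spread. At the other end were Dnah3 (0.0878 CPM per kb in WT), Spag17 (0.0858), Dnah5 (0.0848) and Dnah8 (0.0120). Exon lengths are those of GENCODE M21 and count every exon of a gene, so genes with long unused exons are placed too low.

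The summed level of all 76 was 1114 ± 14.1 CPM in WT (1095 to 1131 over the libraries) and 1022 ± 33.7 CPM in KO (973 to 1054), and Spag9 and Spag5 gave the largest shares of it. Without Spag9 and Spag5 the sums were 504 to 541 CPM in WT and 372 to 406 CPM in KO, again without overlap. In each KO library 42 to 46 of the 61 tested members lay below the lowest WT library, against 23.9% to 27.1% of all genes tested. Of the 42 members at the filter minimum in all libraries, 25 to 28 did, against 23.3% to 27.4% of all genes at that minimum. The median over the 61 of a library's log2 level relative to the WT mean ran from -1.01 to -0.83 in KO and from -0.07 to 0.07 in WT.

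**Figure D3:**
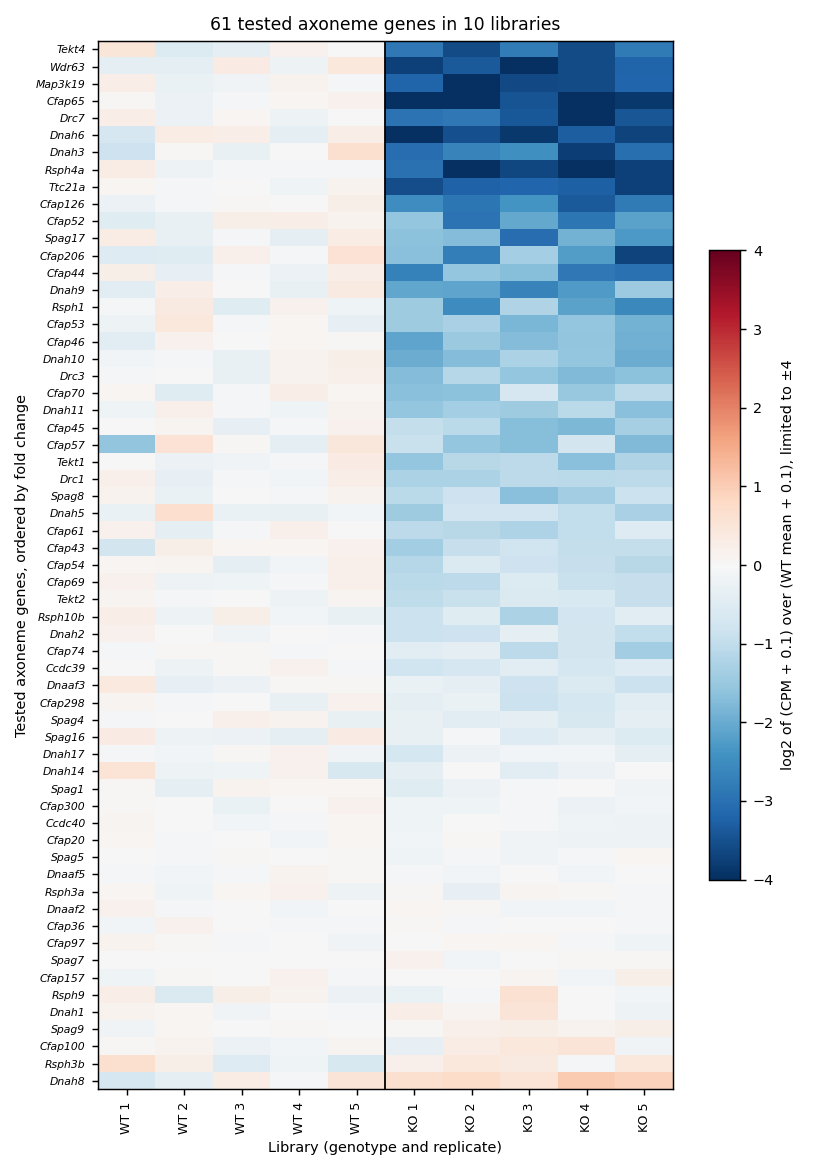
Level of each of the 61 tested axoneme genes (rows, ordered by fold change) in each library (columns), as log2 of CPM plus 0.1 over the WT mean plus 0.1, with colour limited to 4 on either side of 0. The KO columns are blue in the upper rows, close to white from Spag16 downward, and the last row, Dnah8, is pale red in all 5.

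Some members lie in or across other genes, and no strand setting is stated, so reads of overlapping genes cannot be told apart. By GENCODE M21, 17 of the 61 tested members share exon sequence with another gene of at least 1 CPM, and 10 of them fell and 7 did not pass. Of the 44 others 30 fell, 2 rose and 12 did not pass, with a median of -1.19.

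The other genes of the pathway were taken from lists of their own. Of 55 tested genes of motile cilia outside the naming rule 37 fell (67.3%) and 18 did not pass, with a median of -1.12. They included Lrriq1 (7.01 ± 1.30 to 1.07 ± 0.107 CPM, -2.69 ± 0.17), Zmynd10, a dynein assembly factor (-1.79 ± 0.15), Dnali1, an inner arm light chain (-2.85 ± 0.26), and Ak7, an axonemal adenylate kinase (-2.75 ± 0.25). Of 21 tested regulators of multiciliated cells 12 fell (57.1%), 1 rose and 8 did not pass. Over all genes 9.33% were called lower. In both lists some, such as Ak9 and Catip or Deup1 and Cdc20b, fell without reaching the filter minimum in all KO libraries. Such genes passed the filter through WT at least in part, so they are no support for either share. Foxj1, the forkhead factor that drives motile cilia genes, stood at 60.1, 46.7, 51.0, 50.2 and 53.2 CPM in WT and 23.0, 14.2, 16.9, 14.5 and 15.4 CPM in KO (-1.63 ± 0.13, edgeR adjusted p = 1.16e-05). Gmnc, at the top of the multiciliated cell programme, stood at 60.5, 38.0, 38.3, 46.2 and 47.8 CPM in WT and 12.1, 4.28, 4.38, 4.79 and 5.74 CPM in KO (-2.84 ± 0.30). Mcidas, another of these regulators, went from 16.9 ± 2.28 to 2.29 ± 1.37 CPM (-2.81 ± 0.31). The genes of centriole amplification Deup1 (-3.54 ± 0.19) and Cdc20b (-3.91 ± 0.28) had larger log2 fold changes than Gmnc. Rfx3, a factor of both motile and primary cilia, did not pass, at 183 ± 5.21 CPM in WT and 171 ± 11.3 in KO (-0.10 ± 0.05, edgeR adjusted p = 0.157), but passed as lower under upper-quartile and total-count scaling.

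Genes that primary cilia also use were called lower in shares to be read against the 9.33% of all genes. Of 42 tested genes of intraflagellar transport and the BBSome, the machinery that carries cargo in all cilia, 8 fell (19.0%) and 34 did not pass, with a median of -0.07. The largest decreases among them were Ttc30b (-0.89 ± 0.11) and the retrograde motor gene Dync2h1 (-0.60 ± 0.08). Of 35 tested primary cilium genes 6 fell (17.1%), 1 (Gpr161, 0.21 ± 0.05) rose and 28 did not pass, with a median of -0.10. No member of either list fell by 2-fold. All genes of these lists were fitted in the same libraries as the axoneme genes, and differences between the lists were not tested.

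**Figure D4:**
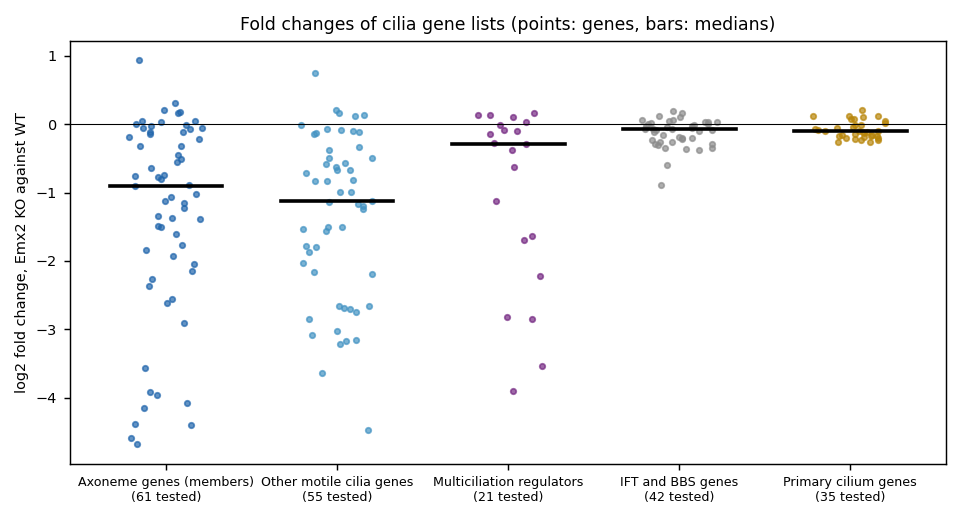
Log2 fold change (y axis) of the tested genes of 5 lists (points, spread sideways for legibility) with the median of each list (bar). The medians of the axoneme genes (-0.90) and the other motile cilia genes (-1.12) lie well below 0, while those of the intraflagellar transport and primary cilium lists are -0.07 and -0.10.

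The decreases were also read within the library size classes and within the codes that end the sample titles, whose meaning the labels do not give. The 5 large libraries alone gave 37 lower of 68 tested members (6.93% of all genes) and the 5 small ones 19 of 59 (1.65% of all genes). All 40 members called lower in the full comparison were below 0 in the large class, and so were all 39 of them that could be fitted in the small class. The 40 were called in these same libraries, so this shared direction was favoured in advance and is no independent support. Of the 40, 34 were called lower again in the large class and 19 in the small class. The gap between the classes was widest for Spag17, with log2 fold changes of -2.04 (large) and -4.14 (small), and next for Tekt4, with -5.19 and -3.81. Within a title code the KO libraries are of 1 size class and the WT libraries of the other, so within a code genotype and size class cannot be told apart. In the 8 libraries of the codes with 2 libraries of each genotype, the genotype effect differed between codes for 0 of 60 tested members (edgeR quasi-likelihood interaction, lowest adjusted p = 0.324, 2 members at an unadjusted p under 0.05) and for 1.53% of all genes.

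**Figure D5:**
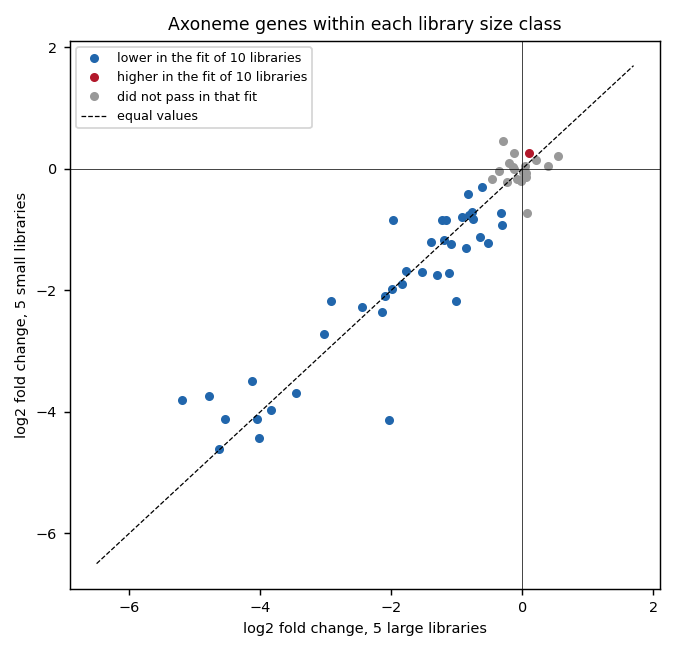
Log2 fold change of 59 axoneme genes in the 5 large libraries alone (x axis) and the 5 small libraries alone (y axis), coloured by the call in the fit of all 10 libraries, with the line of equal values. Of the 59, 46 are below 0 on both axes, and every plotted gene called lower in that fit is among them. That fit holds the same libraries, so this is no independent support.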

How the data were processed

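The deposited files hold raw counts per Ensembl gene for 10 libraries, which the authors made by counting reads without normalization. The submitters' processing notes name featureCounts 1.6.3-p1, STAR 2.7.8a and bcl2fastq 2.20 as tools. They list the builds rn6 and GRCm39 without a role. For parameters, strand setting and annotation release, nothing is given in the sources used here. All 76 members, the gene lists and the tests were chosen with earlier results of these data known.

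Genes were filtered with filterByExpr (minimum count 10) and scaled by TMM, and all 18163 that passed were fitted by genotype with the robust quasi-likelihood F test of edgeR 4.0.16 in R 4.3.3 (two-sided, Benjamini-Hochberg adjusted, threshold 0.05). The standard error of a fold change is its size over the root of F. The procedure was tested on simulated counts. All 20 pairs of libraries of a genotype differed by more than counting noise (lowest chi-square per gene 9.06, highest 23.7), so none was merged. Totals per library limit the precision of members under 1 CPM to a few counts.

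Members were grouped by structural role, and the rule for named genes took, in each role, up to 4 members past the threshold with the smallest p and up to 2 that did not pass with the highest mean. Other lists gave up to 4 genes each, with Emx2, Foxj1, Mcidas, Gmnc and Rfx3. Members outside this rule are named to account for every tested gene. Dnah7a, Dnah7b and Dnah7c were named after their values were seen. Biotypes, exon lengths and overlaps came from GENCODE M21 (GRCm38) by gene identifier, and promoters from RefSeq's table. Coordinates of the annotation served for exon lengths and overlaps but are not printed, because its build is not the one the notes name. The promoter coordinates printed are those of the RefSeq table, on GRCm38.p6.

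Alternatives were other scalings, filters and thresholds, DESeq2 1.42.0, limma-voom (limma 3.58.1), title code or size class as a block or alone, and each library left out. After the data were seen, the members without exon overlap, 5 genes whose synonym or near copy fits the naming rule (Dnaic1, Dnaic2, Spag6l, Wdr66 and Maats1), and sums scaled by total counts were added.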

Additional observations from a re-analysis of the deposited data

Results flagged for a closer look

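In groups of 5 libraries, the gap between the highest or lowest library and the next, divided by the range of the group, was compared with Dixon's critical value of 0.71. Of 160 groups examined for the named genes, 8 exceeded it, and chance gives about 1 in 20. Of these, 3 were axoneme genes. Cfap43 was lowest in WT replicate 1 (3.66 CPM, next 6.44, gap over range 0.772). Dnah5 was highest in WT replicate 2 (2.18 CPM, next 1.22, 0.864), and Rsph4a was highest in WT replicate 1 (8.33 CPM, next 6.51, 0.744). All 3 were called lower in the knockout in every leave-one-out fit. The other 5 were Zmynd10, highest in WT replicate 5 (0.758), Gmnc, highest in KO replicate 1 (12.1 CPM, next 5.74, 0.812), Trpm3, highest in KO replicate 5 (0.717), Rspo1, highest in KO replicate 1 (0.753), and Hes5, lowest in KO replicate 5 (0.881).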

How the results depend on the processing

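Of the 40 members called lower, 34 were called in all 10 fits that left out a library and 36 in every such fit that tested them. Dnaaf3, Cfap298, Cfap57 and Rsph10b were lost at least once, and none of the 40 turned direction under any setting run. Every setting uses libraries in which the 40 were called, so the kept direction is no independent support. The number of members called lower ran from 35 to 39 with a library left out. It was 37 with DESeq2 (37 of the 37 fitted), 40 with limma-voom, 41 under upper-quartile and under total-count scaling, 44 of 75 with no filter, and 40 and 39 with title code or size class as a block. It dropped to 19 in the small libraries alone, against 37 in the large libraries alone, with 5 libraries in each class. With a title code alone it was 13 for code 241022 and 27 for code 14922. The number called higher was 1 with DESeq2, no filter, a mean of at least 1 CPM and size class as a block, and 0 with total counts, in the large or small libraries, with either code alone, at an adjusted p under 0.01 and at 2-fold. With a library left out it ran from 0 to 2. The median log2 fold change of -0.90 was -0.77 at a mean of at least 1 CPM, -1.05 in the large libraries, -0.99 with code 241022, -1.19 without members that share exons, -1.04 with the 5 added genes, and -1.01 to -0.84 with a library left out. Over all genes, 1694 lower and 2345 higher became 291 and 335 in the small libraries, 287 and 243 with code 241022, 703 and 1007 with code 14922, 832 and 1349 at an adjusted p under 0.01, and 356 and 189 at 2-fold. The balance of all genes moved with scaling, to 2245 lower and 1899 higher under upper-quartile scaling and 2464 and 1786 with total counts. Scaled by total counts alone, the summed WT level of the members was 1130 CPM against 1114. No paired analysis was possible by replicate number, because these numbers come from the order of the libraries. The matched fit that was run has title code, which the genotypes share, as a block (above). Some of these fits hold fewer libraries or genes, and the cause of the shifts was not tested.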
